A study of Homo sapiens with 8 samples.

Results

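The genes described here are the amino acid carriers of the SLC1, SLC3, SLC7, SLC36, SLC38 and SLC43 families, measured in K562 and KBM5, established lines of human chronic myeloid leukaemia. Members were all genes of the supplied probe annotation whose symbol starts with one of these family names followed by A and a number, which gave 42 of 17687 genes. They comprised 7 SLC1 genes, 2 SLC3 genes, 13 SLC7 genes, 4 SLC36 genes, 12 SLC38 genes and 3 SLC43 genes. The 42nd, SLC7A6OS, is a neighbour of SLC7A6 on the opposite strand that encodes no carrier and was taken only through its name. Each line had 4 arrays, 1 for each treatment: the combination, IM, OR21 and control (no drug). IM is imatinib, an inhibitor of the BCR-ABL1 kinase on which these cells depend, given at 1000 nM for 24 hours before RNA was taken. OR21 is named OR-2100 in the series title and described there as a demethylating agent. It was given at 100 nM for 3 days, and the combination was OR21 followed by IM. For the combination this dose comes from the protocol text, since its own label gives none. Each line is 1 culture model of the disease, and no label says that arrays came from separate cultures.

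Cells take up amino acids through carriers that differ in what they bind and in where they sit. The SLC7 light chains reach the plasma membrane bound to an SLC3 heavy chain, and many exchange one amino acid for another, so that uptake of leucine through SLC7A5 depends on amino acids already inside the cell. SLC1A5 and the SLC38 carriers bring in glutamine and small neutral amino acids with sodium, while SLC36A1 and SLC38A9 sit on the lysosome, where amino acids are sensed by the kinase complex mTORC1. Several plasma membrane carriers are known targets of MYC and of ATF4, a factor that is made when amino acids run short.

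The values are log2 intensities, analysed as deposited. A gene was taken as above background on an array where its intensity was over the 95th percentile of 612 negative controls, which lay between 161 and 263. Between 5874 and 7083 of the 17687 genes were above it, and the median of all probe sets lay between 77.8 and 83.3. With 1 array for each line and treatment, no group had a repeat. The limma model of both lines therefore used the lines as repeats, and the model per line took as repeats the 2 array pairs that each drug has in a line, 1 of them in the presence of the other drug. Adjusted p-values are limma's with Benjamini-Hochberg adjustment over all genes of a comparison, and a gene was called under 0.05. They measure only the spread these models use, and with 8 arrays all values are of limited precision.

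Markers separated the lines. In KBM5, 0 of 9 measured erythroid markers were above background on any array and their summed intensity was 414 to 571, against 9 of 9 and 144890 to 1175200 in K562. For 12 myeloid markers the count was 10 in KBM5, with sums of 75724 to 363140, against 2 (LYZ and SPI1) in K562, with sums of 1866 to 3165. Of 7 lymphoid markers 1 was above background in KBM5 and 0 in K562. Of 7 stromal and epithelial markers 2 were above background in KBM5 and 3 in K562, where EPCAM and KRT19 were among them. KIT and CD34 were at background on all 8 arrays. The markers also moved with IM, and in part with OR21. In KBM5, myeloid markers summed to 363140 in the combination and 355150 with IM, against 161650 with OR21 and 75724 in the control. For IM, 7 of 12 were called higher and 1 lower, against 10.8% and 10.6% of all genes. For OR21, 3 of 12 were called higher, against 0.486% of all genes. In K562, erythroid markers summed to 1175200 both in the combination and with IM, against 501880 with OR21 and 144890 in the control. For IM, 8 of 9 were called higher, against 5.34% of all genes, and for OR21 0 of 9, against 0.0905%. The part of these shifts in the results on carriers was not tested. In such bulk samples, fewer cells of a type and less RNA per cell cannot be told apart.

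Of the 42 members, 23 (54.8%) were above background on at least 1 array, against 47.8% of all genes. On all 8 arrays this held for 11 members (26.2%), against 26.3% of all genes. These 11 were SLC1A5, SLC38A1, SLC38A10 and SLC38A2, the heavy chain SLC3A2, the 3 SLC43 genes, and SLC7A11, SLC7A6 and SLC7A6OS. The 19 members outside the 23 lay between 6.74 and 58.5 on every array, under background throughout, and none of them was called in any of the 11 comparisons. They were the glutamate carriers SLC1A1, SLC1A2, SLC1A6 and SLC1A7; the heavy chain SLC3A1 and its light chain SLC7A9, which work in kidney and gut; SLC36A2 and SLC36A3; SLC38A3, SLC38A4, SLC38A7, SLC38A8 and SLC38A11; SLC7A3, SLC7A4 and SLC7A14; and the light chains SLC7A7, SLC7A10 and SLC7A13. The plot of intensities by array shows the members on which the results turn.

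**Figure D1:**
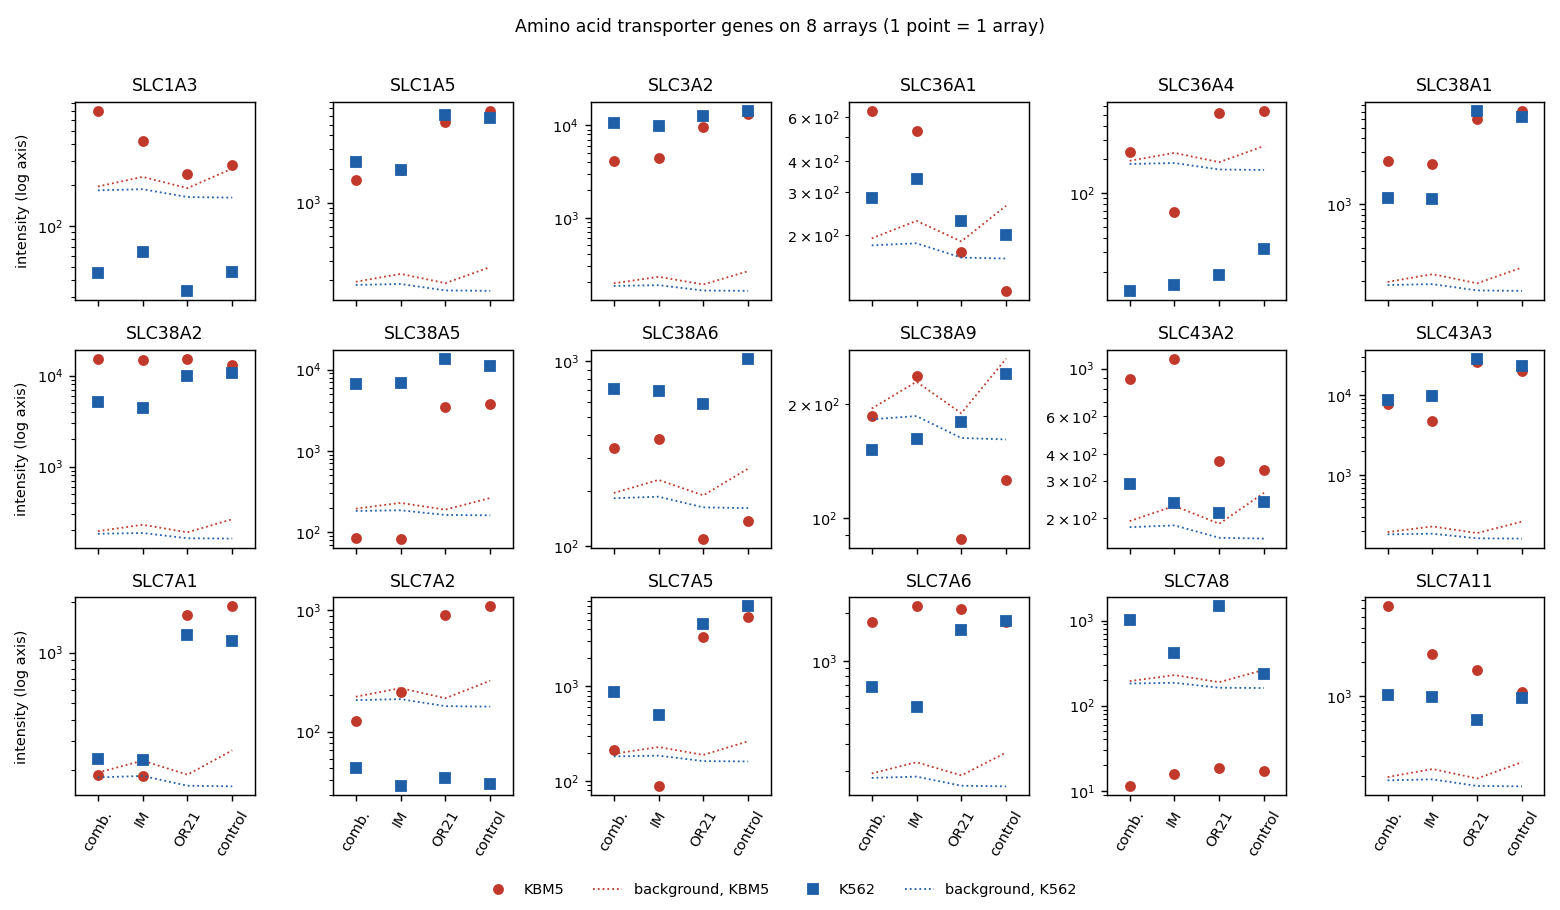
Intensity on a log axis for 18 members (those called for a drug effect, and SLC7A8), with a panel for each gene and treatments from left to right; circles are KBM5 arrays, squares are K562 arrays, and dotted lines are the background of each array. SLC7A1 lies between 186 and 234 on the 4 arrays with IM, against 1164 to 1878 on the 4 without, and SLC7A8 is above background in K562 only.

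IM lowered 5 members over both lines and raised none. They were SLC7A5, SLC7A1, SLC38A1, SLC43A3 and SLC1A5, carriers of the plasma membrane that between them move large neutral amino acids, arginine and lysine, glutamine, and purine bases. The 5 lower calls compare with 4.87% of all genes called lower, and the 0 higher calls in limma with 2.75% called higher. At an unadjusted p under 0.05 there were 8 members lower and 4 higher, beside 2197 lower and 2065 higher of all 17687 genes. The median log2 difference was -0.04 over the 42 members, against 0.06 over all genes.

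SLC7A5 (LAT1) is the light chain that imports leucine and other large neutral amino acids. In KBM5 its intensity was 211 in the combination and 87.9 with IM, against 3321 with OR21 and 5381 in the control. In K562 it was 878 in the combination and 495 with IM, against 4565 with OR21 and 7009 in the control. All 4 arrays with IM lay under all 4 without it, and the KBM5 IM array was at background. The log2 difference was -4.03 ± 0.40 (SE, 4 arrays with and 4 without IM, adjusted p = 0.00626), a size that is not exact for the array at background. The model per line gave -4.96 ± 0.44 in KBM5 (adjusted p = 3.88e-05) and -3.10 ± 0.44 in K562 (adjusted p = 0.00141). The difference between the lines, -1.85 ± 0.63, had an adjusted p of 0.0958. IM against control gave -5.94 in KBM5 and -3.82 in K562, and the combination against OR21 gave -3.98 in KBM5 and -2.38 in K562. Without the K562 control or the K562 IM array the value in K562 became -2.38 (adjusted p = 0.0625). Without the KBM5 OR21 or combination array the difference between lines became -2.83 (adjusted p = 0.00722), and a common OR21 by IM term also called it (-1.85, adjusted p = 0.00666).

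The heavy chain SLC3A2 (CD98), the partner of SLC7A5 at the membrane, was called lower in KBM5 alone. In KBM5 it was at 4153 in the combination and 4444 with IM, against 9540 with OR21 and 13163 in the control. K562 had 10616 in the combination and 9862 with IM, against 12554 with OR21 and 14405 in the control. Within each line the arrays with IM lay under those without. The fall in KBM5 was called, with -1.38 ± 0.24 (2.61-fold lower, 2 arrays with and 2 without IM, adjusted p = 0.00212), whereas K562 had -0.39 ± 0.24 and no call. The value over both lines was -0.89 ± 0.25 (adjusted p = 0.0847), and the difference between the lines was -0.99 ± 0.34 (adjusted p = 0.101, or 0.0143 under moderation with an intensity trend).

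SLC7A1 (CAT1) imports arginine and lysine. With IM its intensity was 188 in the KBM5 combination, 186 in KBM5 IM, 234 in the K562 combination and 231 in K562 IM. Without IM it was 1678 in KBM5 OR21, 1878 in the KBM5 control, 1278 in K562 OR21 and 1164 in the K562 control. The groups stood far apart and both KBM5 arrays with IM were at background. The log2 difference was -2.82 ± 0.23 over both lines (adjusted p = 0.00507). In KBM5 the gene was at least 8.42-fold lower (adjusted p = 1.3e-05) and in K562 it was 5.24-fold lower (-2.39 ± 0.23, adjusted p = 0.000162). Between the lines the difference was -0.86 (adjusted p = 0.139). SLC7A1 and SLC7A5 kept their calls over both lines with each of the 8 arrays left out.

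SLC38A1 (SNAT1) is a sodium-coupled carrier of glutamine and alanine. With IM it was at 2474 in the KBM5 combination and 2313 in KBM5 IM, against 5997 with OR21 and 7089 in the control. The K562 values were 1135 in the combination and 1103 with IM, against 7122 with OR21 and 6208 in the control. The ranges with and without IM did not overlap. It was 4.03-fold lower over both lines (-2.01 ± 0.28, adjusted p = 0.0134), 2.73-fold lower in KBM5 (adjusted p = 0.00145) and 5.94-fold lower in K562 (adjusted p = 0.000124). The difference between the lines was 1.12 (adjusted p = 0.061), and it was called among the brighter genes alone (adjusted p = 0.0324), with log2(value + 16) (0.0313) and under moderation with an intensity trend (0.0122). The call over both lines ended without K562 OR21 (-1.75, adjusted p = 0.0512), the K562 combination (-1.81, 0.0548) or KBM5 IM (-2.19, 0.0517).

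SLC1A5 (ASCT2) exchanges glutamine and other neutral amino acids. In KBM5 it was at 1599 in the combination and 1939 with IM, against 5243 with OR21 and 6652 in the control. Its K562 intensity was 2291 in the combination and 1953 with IM, against 6072 with OR21 and 5776 in the control. The 4 arrays with IM were close to each other across the lines and lay well under the 4 without. The gene was 3.06-fold lower over both lines (-1.62 ± 0.19, adjusted p = 0.00916), 3.35-fold lower in KBM5 (adjusted p = 0.0004) and 2.80-fold lower in K562 (adjusted p = 0.00223). Over both lines the call ended without K562 OR21 (-1.59, adjusted p = 0.0505), KBM5 OR21 (-1.64, 0.0605) or KBM5 IM (-1.66, 0.0506). In K562 it ended without the control or IM array (-1.41, 0.0917) and without the OR21 or combination array (-1.56, 0.0505).

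SLC43A3 belongs to the family by sequence but is known as a carrier of purine bases rather than of amino acids. With IM it was at 7880 in the KBM5 combination and 4769 in KBM5 IM, against 25971 with OR21 and 20269 in the control. In K562 it was at 8678 in the combination and 9747 with IM, against 29000 with OR21 and 23445 in the control. Every array with IM lay under every array without. It was 3.26-fold lower over both lines (-1.70 ± 0.21, adjusted p = 0.0106), 3.74-fold lower in KBM5 (adjusted p = 0.000363) and 2.84-fold lower in K562 (adjusted p = 0.00304). The call over both lines ended without K562 OR21 (-1.78, adjusted p = 0.05003), the K562 combination (-1.62, 0.0521), KBM5 OR21 (-1.63, 0.0648) or KBM5 IM (-1.49, 0.05002), and the call in K562 without its OR21 or combination array (-1.27, 0.115).

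Promoters are shown for 5 members that were lower with IM in at least 1 line and that hold 1 of the motifs searched. Sequences are RefSeq's, build GRCh38.p14, from 250 bases before to 50 after the start, 5′ to 3′ on the gene's own strand, and 33 of the 42 members matched the table. Capitals mark matches, on either strand, to TGATGNAA, a form of the element bound by ATF4 with CEBP partners (in SLC7A1, SLC38A1 and SLC3A2), or to the E-box CACGTG, which MYC with MAX binds (in SLC7A5 and SLC38A5).
SLC7A1, chr13:29595639-29595938, minus strand: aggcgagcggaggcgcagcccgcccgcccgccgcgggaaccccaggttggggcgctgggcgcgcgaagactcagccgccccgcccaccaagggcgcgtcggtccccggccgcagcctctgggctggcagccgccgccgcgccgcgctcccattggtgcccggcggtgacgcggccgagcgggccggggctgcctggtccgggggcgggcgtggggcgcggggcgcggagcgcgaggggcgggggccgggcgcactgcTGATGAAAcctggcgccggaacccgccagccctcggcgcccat
SLC38A1, chr12:46266467-46266766, minus strand: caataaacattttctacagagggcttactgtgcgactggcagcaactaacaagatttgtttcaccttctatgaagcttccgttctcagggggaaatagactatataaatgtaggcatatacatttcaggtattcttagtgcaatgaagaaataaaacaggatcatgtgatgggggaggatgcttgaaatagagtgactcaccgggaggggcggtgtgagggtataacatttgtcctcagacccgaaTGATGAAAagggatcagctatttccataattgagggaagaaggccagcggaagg
SLC3A2, chr11:62881449-62881748, plus strand: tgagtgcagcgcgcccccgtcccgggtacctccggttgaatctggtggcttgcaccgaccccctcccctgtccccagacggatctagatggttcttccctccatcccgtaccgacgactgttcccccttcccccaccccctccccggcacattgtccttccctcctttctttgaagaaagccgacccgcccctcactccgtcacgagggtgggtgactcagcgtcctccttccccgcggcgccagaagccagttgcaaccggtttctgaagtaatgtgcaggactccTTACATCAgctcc
SLC7A5, chr16:87869458-87869757, minus strand: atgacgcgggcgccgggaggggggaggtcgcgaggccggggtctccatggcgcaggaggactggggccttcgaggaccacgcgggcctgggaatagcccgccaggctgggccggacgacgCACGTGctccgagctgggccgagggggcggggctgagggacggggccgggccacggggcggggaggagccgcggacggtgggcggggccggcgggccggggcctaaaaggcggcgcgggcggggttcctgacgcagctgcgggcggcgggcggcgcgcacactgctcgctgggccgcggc
SLC38A5, chrX:48470211-48470510, minus strand: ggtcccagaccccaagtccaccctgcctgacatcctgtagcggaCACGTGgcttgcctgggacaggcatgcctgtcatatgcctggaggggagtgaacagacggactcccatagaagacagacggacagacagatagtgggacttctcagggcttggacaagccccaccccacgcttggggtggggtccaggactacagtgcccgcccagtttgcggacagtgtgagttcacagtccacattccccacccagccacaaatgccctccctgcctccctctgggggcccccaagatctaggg
TGATGNAA was found in the promoters of SLC1A3, SLC38A1, SLC3A2 and SLC7A1, 4 of 33 (12.1%), against 3.62% of all 35116 promoters in the table. In SLC7A1 and SLC3A2 it lay 8 and 38 bases past the start, and in SLC38A1 4 bases before it. CACGTG was found in SLC1A7, SLC38A5, SLC38A7, SLC43A1 and SLC7A5, 5 of 33 (15.2%), against 7.26% of all promoters. The longer palindrome TCACGTGA, which contains CACGTG and is close to the element bound by TFEB, was in 0 of 33 member promoters and in 0.98% of all. SLC1A5, SLC36A4, SLC7A6 and SLC38A2, also lower with IM in at least 1 line, held none of the motifs. SLC43A3 and SLC7A2, also lower, were not matched in the table. SLC1A3, which holds TGATGNAA, was higher with IM in KBM5. Members entered with 1 promoter each. The values over all promoters took every promoter in the table and were not limited to the genes measured here. All matches are descriptions of letters and not sites of binding.

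Within KBM5, IM lowered 9 members and raised 6, against 10.6% and 10.8% of all genes. The median was -0.11 over the members and 0.03 over all genes. The falls were those of SLC7A5, SLC7A1, SLC38A1, SLC1A5, SLC43A3 and SLC3A2, described above, and of SLC38A5, SLC7A2 and SLC36A4. The rises were those of SLC36A1, SLC38A9, SLC38A6, SLC43A2, SLC7A11 and SLC1A3. Within K562, IM lowered 8 members and raised 0 in limma, against 8.05% and 5.34% of all genes, with 10 lower and 0 higher at an unadjusted p under 0.05, beside 2516 and 2173 of all 17687 genes. The median in K562 was 0.03 over the members and 0.07 over all genes. Beside the 5 falls seen over both lines, SLC7A6, SLC38A2 and SLC38A5 were lower. The plot of IM differences by line sets the lines side by side for these genes.

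**Figure D2:**
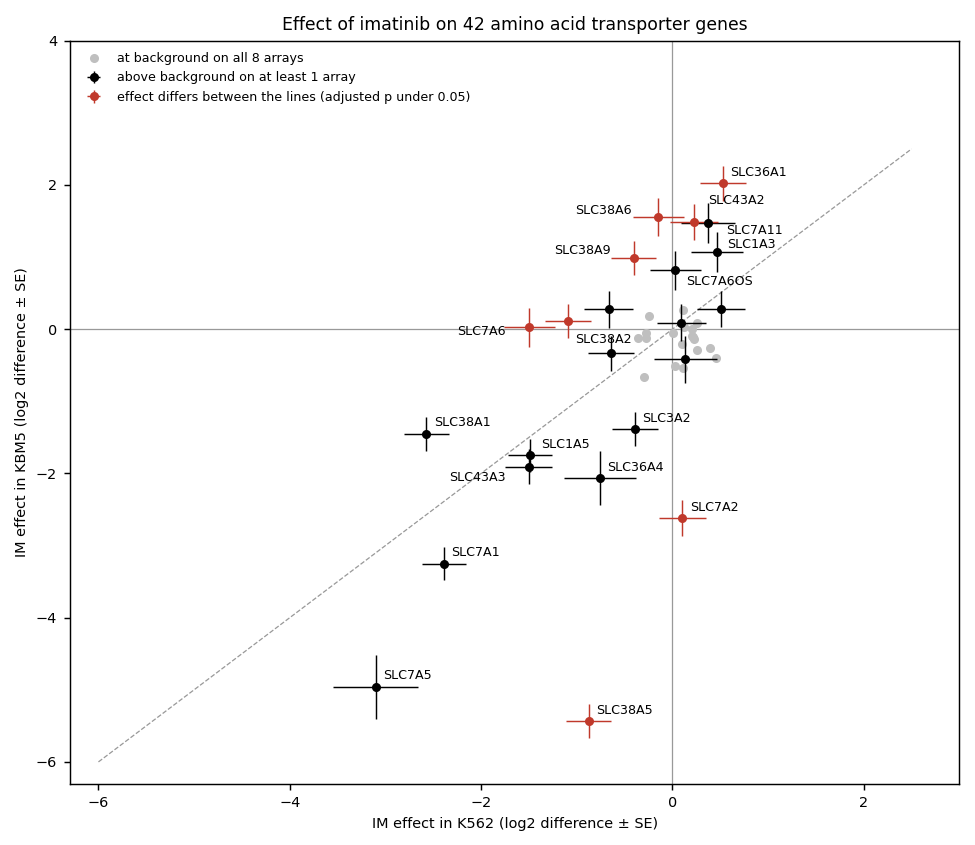
Log2 difference with IM against without IM in KBM5 (vertical axis) and in K562 (horizontal axis), with bars of 1 SE from the model per line; grey points are the 19 members at background, red points the 8 whose effects differed between the lines, black points the rest, and the dashed line marks equal effects. SLC7A5, SLC7A1, SLC38A1, SLC43A3 and SLC1A5 lie low on both axes, while SLC38A5 is plotted at -5.43 in KBM5 and -0.88 in K562, and SLC36A1 at 2.02 in KBM5; both KBM5 positions are measured differences against arrays at background, where at least 17.3-fold lower and at least 2.60-fold higher are the bounds.

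The difference of the IM effect between the lines, KBM5 minus K562, was called for 8 members, 6 higher and 2 lower, against 5.25% and 4.90% of all genes. The lower were SLC38A5 and SLC7A2, which kept this call with each of the 8 arrays left out. SLC38A5 (SNAT5) carries glutamine, histidine and other neutral amino acids. In KBM5 it was at 85.2 in the combination and 83.1 with IM, against 3491 with OR21 and 3790 in the control. K562 had 6730 in the combination and 6778 with IM, against 13696 with OR21 and 11206 in the control. Its KBM5 arrays with IM were at background, while every K562 array was far above it. SLC38A5 was at least 17.3-fold lower with IM in KBM5 (adjusted p = 4.29e-06) and 1.83-fold lower in K562 (-0.88 ± 0.23, adjusted p = 0.0337). KBM5 minus K562, the measured IM effects differed by -4.56 ± 0.33 (adjusted p = 7.39e-05), a size that is not exact because the KBM5 arrays with IM were at background. The K562 call ended without its control or IM array (-1.03, adjusted p = 0.224), without its OR21 or combination array (-0.73, 0.387), after quantile normalization (-0.67, 0.0972) and with a common OR21 by IM term (-0.84, 0.109).

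SLC7A2 (CAT2), another carrier of arginine and lysine, was above background only in KBM5 without IM. Its intensity there was 124 in the combination and 212 with IM, against 915 with OR21 and 1081 in the control, and in K562 it lay between 35.4 and 50.5. It was at least 4.72-fold lower with IM in KBM5 (adjusted p = 5.73e-05). The difference between the lines was -2.72 ± 0.35 (adjusted p = 0.0012), also not exact, since the KBM5 arrays with IM and all K562 arrays were at background. SLC36A4, a carrier of proline and tryptophan, was at 234 in the KBM5 combination and 68.6 in KBM5 IM, against 519 with OR21 and 542 in the control. In K562 it lay between 13.4 and 31.6, under background. Its fall in KBM5 was -2.07 ± 0.38 (adjusted p = 0.00279), with 1 of 2 IM arrays above background, and leaving out 1 KBM5 array moved it between -2.98 (without OR21 or the combination) and -1.15 (without the control or IM). The difference between the lines was -1.31 (adjusted p = 0.168), and -2.22 (adjusted p = 0.00619) without KBM5 OR21 or the combination.

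SLC36A1 (PAT1) exports small amino acids from the lysosome with protons. In KBM5 it was at 637 in the combination and 526 with IM, against 170 with OR21 and 119 in the control. The K562 values were 283 in the combination and 336 with IM, against 229 with OR21 and 201 in the control. The arrays with IM lay above those without in both lines, and the KBM5 arrays without IM were at background. It was at least 2.60-fold higher in KBM5 (adjusted p = 0.000218), and over both lines the value was 1.27 ± 0.34 with no call (adjusted p = 0.0719). SLC38A9, the lysosomal carrier that reports arginine to mTORC1, was at 186 in the KBM5 combination and 237 in KBM5 IM, against 88.1 with OR21 and 126 in the control. Its K562 intensity was 151 in the combination and 162 with IM, against 179 with OR21 and 240 in the control. It lay close to background, above it on 1 of 4 KBM5 arrays (IM) and on 2 of 4 K562 arrays (OR21 and control). The value in K562 was -0.40 ± 0.24 with no call (adjusted p = 0.317). The rise in KBM5 was 0.99 ± 0.24 (adjusted p = 0.0123) and ended without KBM5 OR21 or the combination (0.91, 0.0757) and with a common OR21 by IM term (0.87, 0.0688).

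Among the other members that differed, SLC38A6, a less studied relative of the glutamine carriers, was at 340 in the KBM5 combination and 381 in KBM5 IM, against 110.2 with OR21 and 137 in the control. In K562 it was at 710.1 in the combination and 695 with IM, against 585 with OR21 and 1035 in the control. The KBM5 arrays with IM stood clear of background and those without did not, while the K562 arrays overlapped. SLC38A6 was at least 1.62-fold higher in KBM5 (adjusted p = 0.00193). SLC43A2 (LAT4), which lets branched-chain amino acids and phenylalanine pass down their gradient, was at 892 in the KBM5 combination and 1113 in KBM5 IM, against 371 with OR21 and 338 in the control. It lay between 211 and 288 in K562, where the arrays with and without IM overlapped. SLC43A2 was 2.81-fold higher with IM in KBM5 (1.49 ± 0.25, adjusted p = 0.00167).

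In K562 the differing members were SLC7A6 and SLC38A2. SLC7A6 (y+LAT2) is a light chain that exports arginine in exchange for glutamine and sodium. K562 had 687 in the combination and 511 with IM, against 1569 with OR21 and 1781 in the control. In KBM5 it was at 1745 in the combination and 2206 with IM, against 2128 with OR21 and 1750 in the control. The K562 arrays separated by IM and the KBM5 arrays did not. It was 2.82-fold lower with IM in K562 (-1.50 ± 0.27, adjusted p = 0.00463), a call that ended without the K562 control or IM array (-1.19, 0.183). SLC38A2 (SNAT2) carries small neutral amino acids and is known to be induced when they are scarce. It was at 5191 in the K562 combination and 4384 in K562 IM, against 9794 with OR21 and 10571 in the control, while all KBM5 arrays lay between 13072 and 15397. The fall in K562 was 2.13-fold (-1.09 ± 0.24, adjusted p = 0.0129), and it lost its call without the control or IM array (-0.92, 0.289) and without OR21 or the combination (-1.27, 0.108).

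For these 6 members the tests of the difference between the lines gave larger adjusted p than for SLC38A5 and SLC7A2. The differences were 1.70 ± 0.38 for SLC38A6 (adjusted p = 0.0173), 1.50 ± 0.34 for SLC36A1 (0.0205), 1.40 ± 0.33 for SLC38A9 (0.0252), 1.52 ± 0.38 for SLC7A6 (0.029), 1.21 ± 0.33 for SLC38A2 (0.047) and 1.27 ± 0.35 for SLC43A2 (0.0473). SLC38A6 lost the call when the control or IM array of K562 was left out (1.27, adjusted p = 0.201). SLC36A1, SLC7A6 and SLC43A2 kept it only without KBM5 OR21 or the KBM5 combination, SLC38A9 only without the KBM5 control or KBM5 IM, and SLC38A2 with none of the 8 arrays left out, where its adjusted p lay between 0.0635 and 0.316. The highest adjusted p were 0.193 for SLC36A1, 0.254 for SLC7A6, 0.326 for SLC43A2 and 0.219 for SLC38A9. The sizes for SLC38A6, SLC36A1 and SLC38A9 are not exact, since their KBM5 arrays without IM were at background. Quantile normalization also ended the calls of SLC38A2 (0.0577) and SLC43A2 (0.0567).

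SLC7A11 (xCT), the light chain that imports cystine in exchange for glutamate and so feeds glutathione synthesis, was highest where KBM5 received both drugs. It was at 6164 in the KBM5 combination and 2333 in KBM5 IM, against 1696 with OR21 and 1097 in the control. The K562 values were 1021 in the combination and 982 with IM, against 618 with OR21 and 972 in the control. All 4 KBM5 arrays lay above those of K562. With IM it was 2.78-fold higher in KBM5 (1.48 ± 0.28, adjusted p = 0.00366), and without KBM5 OR21 or the combination the value was 1.09 (0.0524). With OR21 in KBM5 the value was 1.02 ± 0.28 (unadjusted p = 0.00451, adjusted p = 0.183), made of 0.63 without IM and 1.40 with it. The interaction of the drugs over both lines was 0.74 ± 0.73 for SLC7A11 and was not called. The difference between the lines was 1.11 for IM (adjusted p = 0.117) and 1.31 ± 0.40 for OR21 (adjusted p = 0.422). SLC1A3 (EAAT1), a sodium-coupled carrier of glutamate and aspartate, was at 700 in the KBM5 combination and 422 in KBM5 IM, against 240 with OR21 and 279 in the control, and lay under background in K562, between 33.2 and 64.1. It was 2.10-fold higher with IM in KBM5 (1.07 ± 0.27, adjusted p = 0.0171). This call ended without KBM5 OR21 or the combination (0.60, 0.229) and with a common OR21 by IM term (0.85, 0.103).

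OR21 called no member in limma, in both lines together (0% of all genes), in KBM5 (0.486% of all genes higher and 0.0565% lower) or in K562 (0.0905% higher and 0% lower). At an unadjusted p under 0.05 there was 1 member over both lines (SLC1A2, at background throughout), 7 in KBM5 and 1 in K562, beside 622, 2220 and 863 of all genes. Of the 7 in KBM5, 3 were above background on at least 1 array. The member in K562 was SLC7A8 (LAT2), a light chain that exchanges neutral amino acids. Its K562 intensity was 1007 in the combination and 411 with IM, against 1471 with OR21 and 233 in the control. Both arrays with OR21 lay above both without it, and all KBM5 arrays were far under background, between 11.2 and 18.5. The 2 pairs gave 2.66 (OR21 against control) and 1.29 (combination against IM), and the fit gave 1.97 ± 0.33 (3.93-fold higher, unadjusted p = 0.000107, adjusted p = 0.0793). It passed with an intensity trend in the moderation (adjusted p = 0.0265), with a common OR21 by IM term (2.46, 0.0146) and without any 1 of the KBM5 arrays (0.0325). Leaving out a KBM5 array left the K562 value at 1.97. No other alternative called SLC7A8, and it was not called without any 1 of the K562 arrays. The difference of the OR21 effect between the lines was not called for any member (0.0452% of all genes higher and 0.0565% lower). At an unadjusted p under 0.05 there were 5 members, 4 of them above background on at least 1 array, beside 1352 of all genes. For SLC7A8 the difference was -2.16 ± 0.46 (adjusted p = 0.208).

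The SLC7A8 promoter is shown because OR21 is described as a demethylating agent. Capitals mark CG, the pair of bases that carries DNA methylation, and methylation was not measured in these samples.
SLC7A8, chr14:23155271-23155570, minus strand: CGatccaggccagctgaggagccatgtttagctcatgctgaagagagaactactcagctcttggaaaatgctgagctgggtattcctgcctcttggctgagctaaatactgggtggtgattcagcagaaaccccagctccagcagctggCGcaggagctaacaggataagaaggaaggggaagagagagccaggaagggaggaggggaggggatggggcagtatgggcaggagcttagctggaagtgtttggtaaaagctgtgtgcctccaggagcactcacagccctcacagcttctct
It holds 2 CG pairs, and 11.0% of promoters in the table hold fewer, while the median is 16 over the 33 member promoters and 14 over all. By comparison SLC7A1 and SLC7A5 hold 49 and 44.

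SLC36A4 in KBM5 gave -0.06 for OR21 against control and 1.77 for the combination against IM, with a value of 0.85 ± 0.38 (adjusted p = 0.388). Without the KBM5 control or KBM5 OR21 array the value rested on the combination against IM, 1 array against 1 (1.77, adjusted p = 0.0425). The KBM5 IM array was at background, so the size of 1.77 is not exact. SLC7A5 likewise had opposite signs in its OR21 pairs. In KBM5 the combination was above IM by 1.26 while OR21 against control was -0.70, and in K562 the values were 0.83 and -0.62. SLC7A5 was at background on the KBM5 IM array, so its KBM5 value of 1.26 is not exact, while all K562 arrays were above background. The interaction of the drugs over both lines was called for no member in limma (0% of all genes), with 1 at an unadjusted p under 0.05, SLC7A13, which was at background throughout. For SLC7A5 the interaction was 1.70 ± 0.79, which includes that array, and was not called. The plot of OR21 differences by array pair shows these values.

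**Figure D3:**
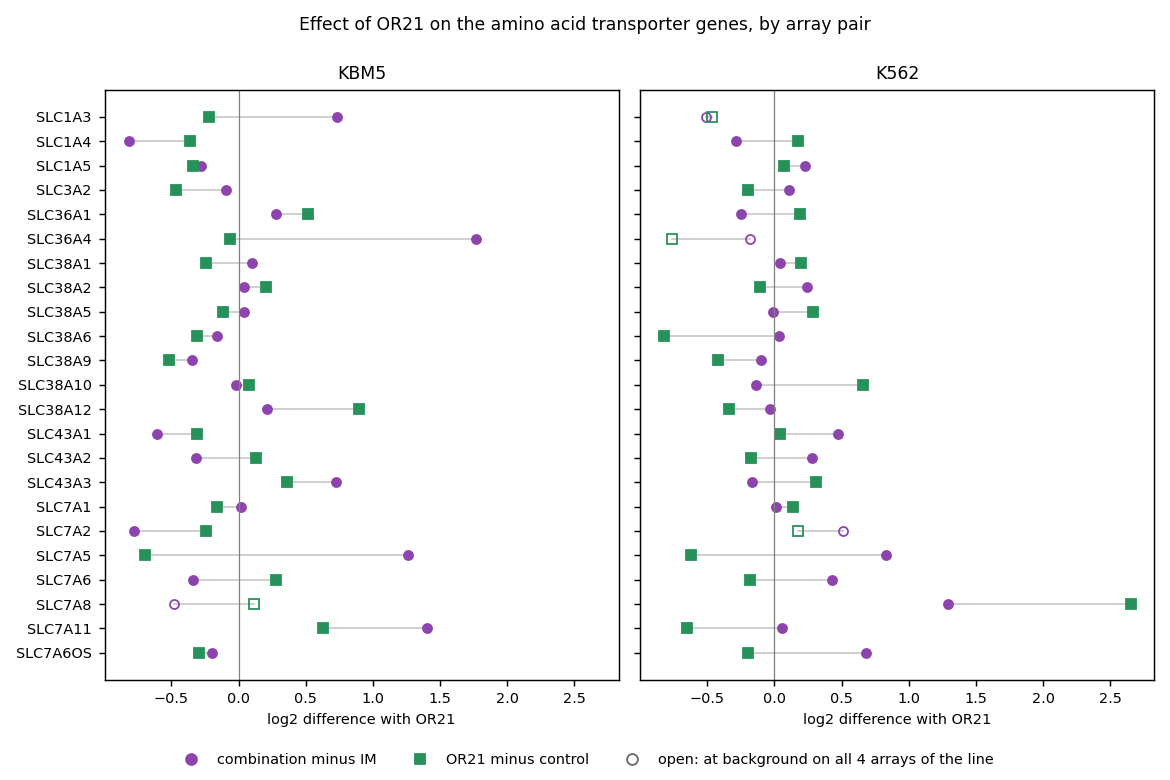
Log2 difference with OR21 against without OR21 for the members above background on at least 1 array, with a point for each array pair (circles for the combination against IM, squares for OR21 against control) in KBM5 and in K562; open points are members at background on all 4 arrays of the line. SLC7A8 is high in both K562 pairs (2.66 and 1.29), SLC7A11 in both KBM5 pairs (1.40 and 0.63), and SLC7A5 lies on opposite sides of 0 in the pairs of each line.

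The combination against control over both lines, 2 arrays against 2, lowered 1 member and raised 0 in limma, against 0.136% and 0.0622% of all genes. At an unadjusted p under 0.05 there were 7 members lower and 2 higher, beside 1461 and 1345 of all genes. The call was SLC7A1, at 188 and 234 in the KBM5 and K562 combination against 1878 and 1164 in the KBM5 and K562 controls (-2.82 ± 0.33, adjusted p = 0.0491, 1 of 2 combination arrays above background). It was lost with each of the 8 arrays left out, at adjusted p of 0.117 to 0.323. SLC7A5 had -3.84 ± 0.56 (adjusted p = 0.0591), SLC1A5 -1.70 (0.0653) and SLC38A1 -1.99 (0.0858). This comparison shares its arrays with those of IM and of OR21.

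KBM5 against K562, over the 4 treatments, had 10 members higher and 4 lower, against 15.0% and 17.0% of all genes. The median was 0.16 over the members and 0.04 over all genes. Some members were found in 1 line only. SLC7A8 was under background in KBM5 and between 233 and 1471 in K562, at least 2.83-fold lower in KBM5 (adjusted p = 0.000242). SLC1A3 was at least 2.17-fold higher in KBM5 (adjusted p = 0.000234), SLC7A2 at least 2.33-fold (0.00499, 2 of 4 KBM5 arrays above background) and SLC36A4 at least 1.50-fold (0.000618, 3 of 4), and in K562 all 3 were at background throughout.

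Others were present in both lines at different levels. SLC43A1 (LAT3), which passes branched-chain amino acids and phenylalanine, was at 3813, 5819, 5325 and 6615 in the KBM5 combination, IM, OR21 and control, against 1061, 762, 1424 and 1385 in K562 in the same order. It was 4.71-fold higher in KBM5 (2.23 ± 0.23, adjusted p = 0.000512). SLC1A4 (ASCT1), a carrier of alanine, serine and cysteine, was at 641, 1126, 615 and 789 in KBM5, against 207, 253, 171 and 152 in K562. It was 4.01-fold higher in KBM5 (2.00 ± 0.19, adjusted p = 0.00039), a size that is not exact because the K562 control array was at background. SLC38A10 was at 1036, 1048, 1005 and 951 in KBM5, against 360, 396, 444 and 281 in K562, and 2.76-fold higher (1.47 ± 0.18, adjusted p = 0.00102). None of these 3 had overlapping ranges or was called for a drug, except that SLC43A1 was called lower with IM in K562 under moderation with an intensity trend (-0.64, adjusted p = 0.0447, against 0.117 without it). SLC38A6 went the other way, at -1.81 ± 0.37 (adjusted p = 0.00971), and its control arrays differed by -2.92. Its KBM5 arrays without IM were at background, so these sizes are not exact.

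The remaining 6 of the 14 calls did not hold with each array left out, and for each of them the lines lay closer together in the controls than over the 4 treatments. SLC38A5 had -4.05 ± 0.89 over the 4 treatments (adjusted p = 0.0132), against -1.56 between the controls. SLC7A5 had -1.35 ± 0.40 (0.0394), against -0.38 between the controls, and its ranges overlapped. SLC7A11 had 1.37 ± 0.37 (0.0283), SLC43A2 1.30 ± 0.31 (0.0174), SLC38A12 (formerly TMEM104) 1.27 ± 0.30 (0.0164) and SLC38A2 1.07 ± 0.29 (0.0283). Between the controls these were 0.17, 0.51, 0.18 and 0.31. Without an IM or a combination array these calls ended, with SLC38A5 at -3.28 and -3.30 (adjusted p = 0.0539 and 0.0557), SLC7A5 at -0.97 and -1.11, SLC43A2 at 0.98 and 1.18, SLC38A2 at 0.83 and 0.90, SLC7A11 at 1.41 and 0.96 and SLC38A12 at 1.15 and 1.07. SLC7A11 (1.34) and SLC38A12 (1.22) also lost theirs without an OR21 array. The fitted sizes of SLC38A5, SLC7A5 and SLC38A12 are not exact, since at least 1 of their arrays given IM was at background. The other 8 members kept their calls with each array left out. In this comparison the array of a treatment gave the same fit whichever line it was left out from.

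**Figure D4:**
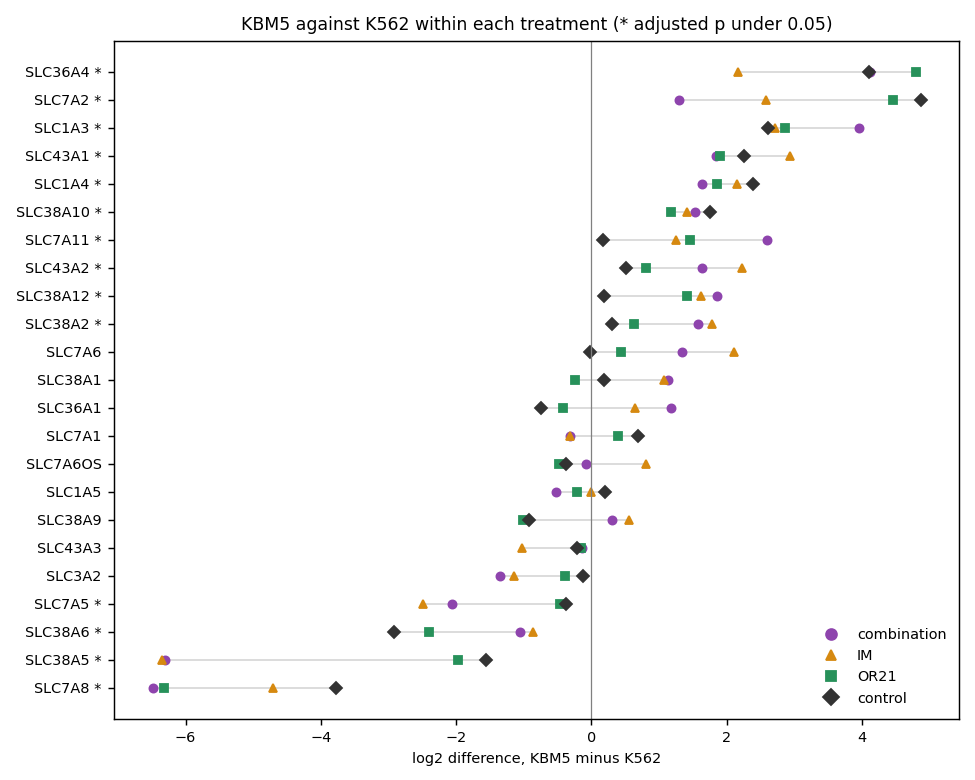
Log2 difference KBM5 minus K562 for the 23 members above background on at least 1 array, with a point for each treatment (combination, IM, OR21 and control) and a star at the 14 called members. The control points of SLC7A11, SLC38A12, SLC38A2 and SLC43A2 lie between 0.17 and 0.51, under their fitted differences of 1.07 to 1.37, while those of SLC1A3, SLC36A4 and SLC7A2 lie between 2.60 and 4.87. K562 was at background for SLC1A3, SLC36A4 and SLC7A2, so their differences are not exact.

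Genes around these carriers were followed in 5 lists. Among 16 other amino acid carriers, IM over both lines raised 1 and lowered 1, against 2.75% and 4.87% of all genes. SLC66A1, which exports cationic amino acids from the lysosome, rose (1.25 ± 0.27, adjusted p = 0.0419), and MFSD12, which brings cysteine into lysosomes and melanosomes, fell (-1.60 ± 0.32, adjusted p = 0.0341, detected on 2 of the 4 arrays given IM). In KBM5, 2 of the 16 rose and 1 fell, against 10.8% and 10.6% of all genes. In K562, 1 rose and 2 fell, against 5.34% and 8.05% of all genes. SLC6A6, the taurine carrier, was at 3247 in the KBM5 combination and 2407 in KBM5 IM, against 1305 with OR21 and 1221 in the control. In K562 it was at 684 in the combination and 398 with IM, against 4014 with OR21 and 2706 in the control. The lines moved apart, with 1.15 ± 0.24 in KBM5 (adjusted p = 0.00587) and -2.66 ± 0.24 in K562 (0.000118), and a difference of 3.81 ± 0.33 (0.000191). SLC6A9, a glycine carrier of red cell precursors, rose in K562 (2.05 ± 0.43, adjusted p = 0.0116).

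In the list of amino acid sensing by mTORC1, 32 of 35 genes were analysed here. IM over both lines raised 3 and lowered 1, against 2.75% and 4.87% of all genes. SESN1, of the sestrin family whose member SESN2 senses leucine, was at least 2.00-fold higher (adjusted p = 0.0185), CASTOR2, a relative of the arginine sensor CASTOR1, rose by 1.36 ± 0.27 (0.0347, detected on 2 of the 4 arrays that had no IM) and FNIP1, a partner of FLCN, by 0.97 ± 0.20 (0.0364). SEH1L, a subunit of GATOR2 and of the nuclear pore, had -1.78 ± 0.22 (0.0101). In KBM5 6 rose and 5 fell, against 10.8% and 10.6% of all genes. In K562 5 rose and 1 fell, against 5.34% and 8.05% of all genes. The median over both lines was 0.12, against 0.06 over all genes.

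The amino acid response list, which holds ATF4, kinases that act upstream of it (EIF2AK3 and EIF2AK4) and genes linked to it, had 9 of the 21 genes analysed here lower and 0 higher in limma over both lines, 9 lower and 1 higher in KBM5, and 10 lower and 1 higher in K562. Of all genes, 4.87% were lower and 2.75% higher over both lines, 10.6% and 10.8% in KBM5, and 8.05% and 5.34% in K562. At an unadjusted p under 0.05 over both lines, 11 of the list were lower and 2 higher, beside 2197 and 2065 of all 17687 genes. The medians of the list were -0.64 over both lines, -0.68 in KBM5 and -0.86 in K562, against 0.06, 0.03 and 0.07 over all genes. PHGDH, which opens serine synthesis, was at least 18.0-fold lower in KBM5 (adjusted p = 7.19e-06) and had -2.42 ± 0.35 in K562 (0.00156). PSAT1, of the same pathway, had -4.05 ± 0.25 in KBM5 (7.13e-06) and -2.21 ± 0.25 in K562 (0.000392). ASNS, which makes asparagine, was not detected with IM in KBM5 (6.04e-06) and had -1.60 ± 0.24 in K562 (0.00204). TRIB3, a pseudokinase, was at least 2.01-fold lower in KBM5 (0.00136) and at least 2.13-fold lower in K562 (0.00469). ATF4 itself had -0.61 ± 0.18 over both lines with no call (0.0924). Among the 11 of 14 glutamine and glutathione enzymes analysed here, 2 were lower over both lines, 5 in KBM5 and 4 in K562, and 0 were higher in any of these in limma, with medians of -0.70, -0.63 and -0.49. At an unadjusted p under 0.05 over both lines, 7 of these enzymes were lower and 1 higher. The shares of all genes are those given above for the response list. GOT1, the cytosolic aspartate aminotransferase, was lower in both lines, with -1.91 ± 0.24 in KBM5 (0.000262, detected on 1 of the 2 arrays given IM) and -1.67 ± 0.24 in K562 (0.00131). GLUL, which makes glutamine, fell in K562 (-1.13 ± 0.27, 0.0191).

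Of 8 factors named as regulators of these carriers, 1 was lower over both lines, against 4.87% of all genes. It was MYC, with -2.29 ± 0.25 in KBM5 (adjusted p = 0.000126) and -2.33 ± 0.25 in K562 (0.000284). Its partner MAX had 0.90 ± 0.27 in KBM5 (0.0375) and -1.03 ± 0.27 in K562 (0.0307). NFE2L2, a factor known to drive SLC7A11, fell in K562 (-1.23 ± 0.28, 0.0151). In KBM5 NFE2L2 had 0.75 ± 0.28 with no call (0.0843), and the difference between the lines was 1.98 ± 0.39 (0.00992). A link of any of these factors with the carriers was not tested. TFEB was at background on all 8 arrays. These lists hold genes picked for their known roles, and no test of a list as a whole was made.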

How the data were processed

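Per the labels, biotin-labelled total RNA of 8 samples was hybridised to expression arrays. The authors deposited a linear intensity for each of 24351 probe sets. How intensities were summarized and normalized is not given in the sources used here. In the supplied annotation 17709 probe sets carried 1 symbol, giving 17687 genes; for the 20 genes with several probe sets, none a member, the brightest was used. Values were analysed as log2(intensity) without further normalization.

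Groups came from the labels. Models were fitted with limma 3.58.1 in R 4.3.3 on all genes. The model of both lines (line plus treatment) had 3 residual and 3.765 prior degrees of freedom, and the model per line (baseline, OR21 and IM terms for each line) had 2 and 8.309. The model per line takes the drugs as additive on the log2 scale. There were 11 comparisons. Where a side was at background on all its arrays, a fold is a bound ("at least"). It was computed from the mean log2 intensity of the other side minus the mean log2 background percentile of the side at background. Members called for a drug effect or a difference between the lines were named with every value, as were up to 8 calls in each direction for KBM5 against K562 and up to 4 of an outside list; values given without a call, such as those of SLC7A8 with OR21, were picked after they were seen. The members and lists were chosen with earlier results of these data known. The procedure was run on simulated data with independent noise. For the model of both lines the simulated effect was the same in each line, so line differences in drug effects were not covered. Alternatives tried were quantile normalization, genes above the median brightness alone, robust moderation with an intensity trend, the mean of probe sets, log2(value + 16), no line term, a common OR21 by IM term, and each array left out. Some genes of the outside lists are not reported here.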

Additional observations from a re-analysis of the deposited data

Results flagged for a closer look

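The effect of IM differed between KBM5 and K562 by the test of the difference itself for 8 members, each given as the log2 effect in KBM5 minus that in K562. It was more negative in KBM5 for the glutamine carrier SLC38A5 (-4.56) and the cationic carrier SLC7A2 (-2.72). It was more positive in KBM5 for SLC38A6 (1.70), the light chain SLC7A6 (1.52), the lysosomal carriers SLC36A1 (1.50) and SLC38A9 (1.40), SLC43A2 (1.27) and SLC38A2 (1.21). The sizes for SLC38A5, SLC7A2, SLC38A6, SLC36A1 and SLC38A9 are not exact, since at least 1 side of the KBM5 comparison was wholly at background. No group held enough arrays for a search for outlying arrays, and the cause of these differences was not tested.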

How the results depend on the processing

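No called member changed direction under the alternatives run. Of the member calls, moderation with an intensity trend and the mean of probe sets each kept 51 and ended 0, leaving out the line term kept 0 and ended 6, quantile normalization kept 46 and ended 5, the brighter genes alone kept 48 and ended 1, log2(value + 16) kept 48 and ended 3, a common OR21 by IM term kept 28 and ended 3, and leaving out 1 array at a time kept 304 and ended 104. The refits with 1 array left out were not all separate checks. In the model per line, leaving out an array of the other line left the estimate within a line unchanged. For KBM5 against K562, leaving out the array of a treatment gave the same fit whichever line it came from. Without the line term the IM effect over both lines called 0 members in place of 5. For the combination against control, quantile normalization, the brighter genes, log2(value + 16) and no line term each called 0 in place of 1, and 0 to 0 were called with 1 array left out. OR21 in K562 called 1 member, SLC7A8, with an intensity trend and with a common OR21 by IM term, in place of 0. The cause was not tested. With 1 array left out, the number of members called ranged from 2 to 6 for IM over both lines, 12 to 15 in KBM5 and 3 to 9 in K562, 2 to 8 for the difference of the IM effect, 0 to 1 for OR21 in K562, 0 to 1 for OR21 in KBM5 and 8 to 16 for KBM5 against K562. Over all genes, the 1349 calls for IM over both lines became 115 to 557 with 1 array left out, and the cause was not tested. No paired analysis was possible because replicate numbers pair nothing with 1 array per line and treatment; the lines themselves were a term of the model of both lines. Signal over background limits SLC38A9, SLC36A4, SLC7A2, SLC1A3 and SLC7A8, which were at background on most arrays or in 1 line.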
